A study of Arabidopsis thaliana with 12 samples.

Results

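Expression of 10 jasmonate genes was followed through the culture steps of shoot regeneration: LOX2 (AT3G45140), AOS (AT5G42650), AOC1 (AT3G25760), AOC2 (AT3G25770) and OPR3 (AT2G06050), which make the hormone, JAZ1 (AT1G19180) and JAZ10 (AT5G13220), which repress the response, the transcription factor gene MYC2 (AT1G32640), and the response genes VSP1 (AT5G24780) and VSP2 (AT5G24770). A locus of the Ler genome was taken as a member when its listed homologs in Col included one of these genes, which gave 10 of 27147 loci. For 6 of them a single Col gene is listed. The other 4 are 2 loci that each list both AOC1 and AOC2, and 2 that each list both VSP1 and VSP2. The authors' quantification may have divided reads among copies this alike, so these loci are called by both gene names and their locus identifier, and the values of either copy alone are uncertain.

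RNA-seq was carried out on Arabidopsis thaliana Ler, wild type (WT) or homozygous for dme-2, a mutant allele of DEMETER (DME), which encodes a DNA demethylase. Leaves of 2-week-old seedlings were cultured for 7 days in darkness on callus-inducing medium (CIM), which holds the synthetic auxin 2,4-D and kinetin, and these calli were either harvested or moved to shoot-inducing medium (SIM), which holds indole-3-acetic acid and 2-isopentenyl adenine, for 14 days under long days. Calli and de novo shoots of both genotypes gave 4 groups of 3 biological replicates. Stage therefore changed together with light, medium and time in culture, and these cannot be told apart. In such bulk samples, fewer cells of a type and less RNA per cell cannot be told apart either.

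Jasmonates are lipid-derived hormones of wounding, defence and flower development. In the plastid, 13-lipoxygenases such as LOX2, allene oxide synthase (AOS) and allene oxide cyclases (AOC) convert linolenic acid to the precursor OPDA, which OPR3 reduces in the peroxisome. The active conjugate JA-Ile is bound by the receptor COI1 together with JAZ proteins, whose destruction frees MYC2 and related factors; most JAZ genes, and the synthesis genes themselves, are in turn induced by the hormone, while CYP94 and JOX enzymes inactivate it.

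Levels are given as TPM, in which transcript abundance is adjusted for transcript length and scaled to the same total in every library, so that genes can be compared. Total counts were 12981250 to 20128757 per library in the 9 libraries whose counts were used. The count columns labelled dme-2 callus were left out, because their median departure from the TPM of the same libraries, over 13825 loci, was 0.874 to 1.09 (log2), against 0.0317 to 0.0769 in the other 9. DME itself ranged over 10.11 to 13.17 TPM in WT calli and 3.14 to 3.54 in dme-2 calli, and over 18.65 to 19.44 in WT shoots and 7.49 to 7.89 in dme-2 shoots. The 17 mesophyll marker loci summed to 66827 to 68795 TPM in WT shoots, 51526 to 55249 in dme-2 shoots and 138 to 316 in calli of either genotype. The 5 shoot meristem markers summed to 35.5 to 36.7 TPM in WT shoots, 55.1 to 61.8 in dme-2 shoots and at most 0.30 in calli, where 4 of them were at 0 in every WT library. The 8 root-type callus markers summed to 78.2 to 93.6 TPM in calli and 30.0 to 45.1 in shoots. LBD16 was the largest of them in WT calli (mean 54.10 TPM) and was at 0.23 TPM in WT shoots. The largest in WT shoots were SCR, SHR and TMO5 (means 17.51, 12.41 and 11.94 TPM). In WT shoots 5 of the 8 were lower than in WT calli and 2 higher (SCR and TMO5), beside 38.4% and 43.4% of all loci.

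In shoots, 7 of the 10 loci were higher in dme-2 than in WT and 3 were lower (adjusted p below 0.05, edgeR quasi-likelihood test with Benjamini-Hochberg adjustment over 19114 loci). Across all loci tested, 26.7% were higher and 26.1% lower by the same rule. Calls were thus common in this comparison, and size separates the loci more than the call does: 4 of the 10 rose by more than 1 on the log2 scale, against 4.63% of all loci. The median log2 fold change was 0.86 for the members and -0.0045 for all loci. In calli, limma on log2(TPM + 1) called 0 of the 8 members that averaged 1 TPM or more, against 0.141% of all loci in either direction, with 3 members, and 1373 of 17029 loci, at an unadjusted p under 0.05. Callus replicates were far more spread than shoot replicates, and the callus differences of LOX2 and both AOC1/AOC2 loci, given with their errors further on, were no smaller than those in shoots.

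**Figure D1:**
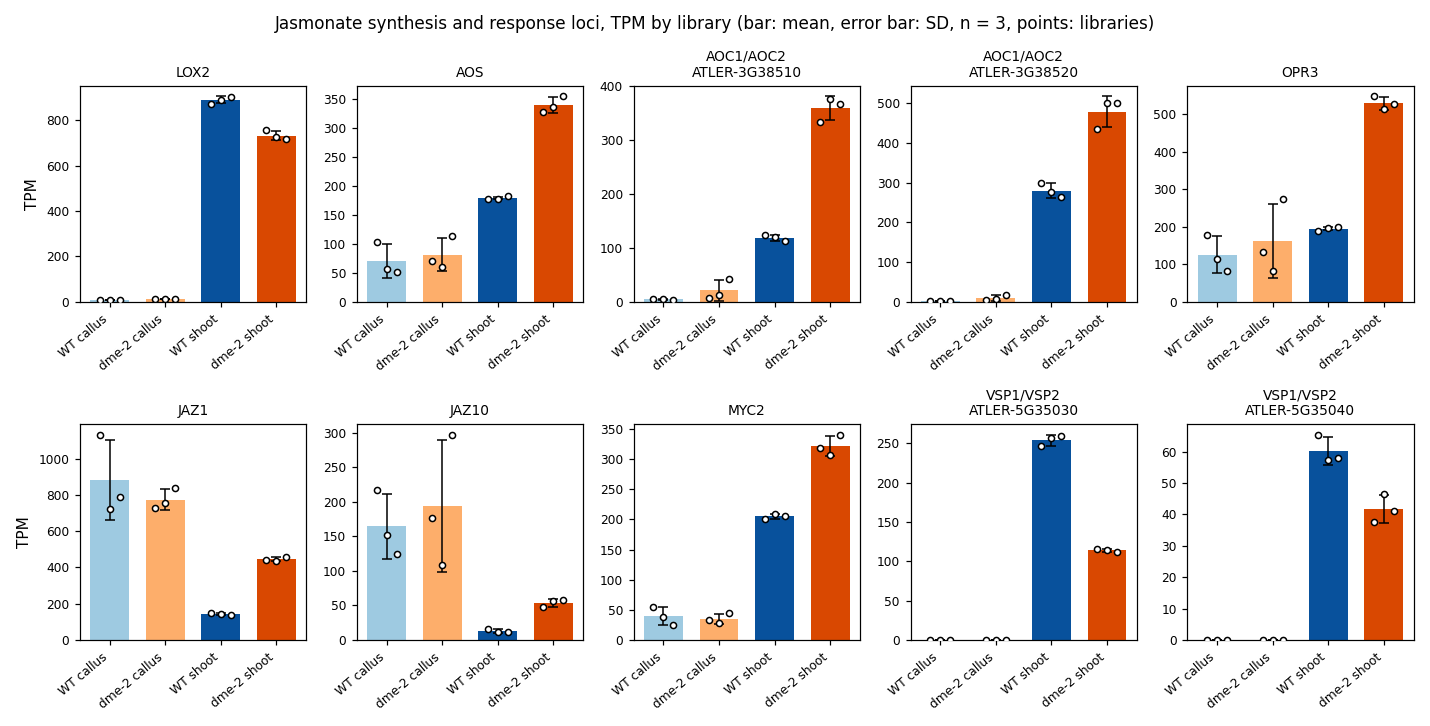
TPM of the 10 loci in WT and dme-2 calli and de novo shoots. Bars are means of 3 libraries, error bars SD and points single libraries. OPR3, AOS, both AOC1/AOC2 loci, JAZ1, JAZ10 and MYC2 lie higher in every dme-2 shoot library than in any WT shoot library, LOX2 and both VSP1/VSP2 loci lie lower, and VSP1/VSP2 TPM is at or near 0 in calli.

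Of the synthesis loci, those of LOX2 and AOC1/AOC2 differed most between the stages. LOX2 (ATLER-3G62960), the plastid lipoxygenase that supplies much of the wound-induced jasmonate in leaves, had 6.38, 7.71 and 7.36 TPM in WT calli, while WT shoots had 873.79, 891.50 and 904.60. The dme-2 calli had 11.48, 12.14 and 10.64 TPM and the dme-2 shoots 755.92, 724.61 and 718.12. It was the most abundant member in shoots of both genotypes, with no overlap between any pair of groups. From WT calli to WT shoots LOX2 rose by 6.46 ± 0.15 on the log2 scale (SE, adjusted p = 4.27e-09). In dme-2 shoots it fell by 0.28 ± 0.05 relative to WT shoots (adjusted p = 1.53e-05), a call that was lost when all 9 libraries with usable counts shared one estimate of the spread (adjusted p = 0.1003).

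AOS (ATLER-5G60000), the next enzyme, was at 103.56, 56.07 and 51.18 TPM in WT calli and 177.14, 177.65 and 181.63 in WT shoots, and at 69.42, 60.72 and 113.67 in dme-2 calli and 326.61, 336.07 and 353.72 in dme-2 shoots. Callus replicates were spread widely, shoot replicates narrowly, and the shoot groups did not overlap. AOS was higher in dme-2 than in WT shoots by 0.94 ± 0.04 on the log2 scale (adjusted p = 4.07e-15), and WT shoots exceeded WT calli by 0.76 ± 0.21 (adjusted p = 0.00920).

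The AOC1/AOC2 locus ATLER-3G38510 was at 5.22, 5.16 and 2.42 TPM in WT calli and 7.33, 13.39 and 42.86 in dme-2 calli. Shoots had 123.88, 119.27 and 112.64 TPM in WT and 334.59, 376.18 and 367.04 in dme-2. All dme-2 libraries thus lay above all WT libraries at both stages, although within dme-2 calli the highest was 5.85 times the lowest. In shoots this locus was higher in dme-2 by 1.66 ± 0.06 on the log2 scale (adjusted p = 9.22e-17). From WT calli to WT shoots it rose by 3.75 ± 0.15 (adjusted p = 5.20e-08).

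Its neighbour ATLER-3G38520, the second AOC1/AOC2 locus, was lower still in calli, at 2.27, 1.06 and 1.15 TPM in WT and 4.18, 6.85 and 16.74 in dme-2. It reached 299.81, 276.74 and 264.17 TPM in WT shoots and 435.37, 501.11 and 502.13 in dme-2 shoots. In mean TPM the order of the copies was thus reversed between stages in both genotypes, with ATLER-3G38510 the higher in calli and ATLER-3G38520 the higher in shoots. The copies overlapped in dme-2 calli, no test compared them, and the values of either alone are uncertain. The second copy was higher in dme-2 shoots by 0.79 ± 0.06 on the log2 scale (adjusted p = 7.66e-11), and it rose from WT calli to WT shoots by 6.69 ± 0.15 (adjusted p = 3.84e-09).

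OPR3 (ATLER-2G16770), the reductase that acts on OPDA, was already well expressed in calli, at 178.69, 114.57 and 81.39 TPM in WT and 133.22, 81.81 and 272.94 in dme-2. It was at 189.87, 197.02 and 198.29 TPM in WT shoots and 547.91, 513.79 and 528.50 in dme-2 shoots. The genotypes overlapped in calli and were far apart in shoots, where OPR3 was higher in dme-2 by 1.44 ± 0.05 on the log2 scale (adjusted p = 1.38e-17). Between WT calli and WT shoots OPR3 was the member that was not called (0.17 ± 0.21, adjusted p = 0.472). This value hung on scaling and on single callus libraries: it was 0.71 (adjusted p = 0.0381) by limma on log2(TPM + 1), 0.70 (adjusted p = 0.0286) with library size only, 0.44 (adjusted p = 0.00766) without WT callus replicate 1 and -0.027 without WT callus replicate 3.

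The JAZ repressor genes ran the opposite way with stage. JAZ1 (ATLER-1G30490) was the most abundant member in calli, at 1131.52, 722.65 and 790.79 TPM in WT and 725.54, 757.48 and 836.39 in dme-2. Shoots had 149.78, 145.11 and 140.13 TPM in WT and 441.41, 436.34 and 456.95 in dme-2. The callus groups overlapped, and the WT shoot, dme-2 shoot and callus levels were separate. JAZ1 fell by 2.95 ± 0.14 on the log2 scale from WT calli to WT shoots (adjusted p = 1.17e-07) and by 0.79 ± 0.11 from dme-2 calli to dme-2 shoots (limma, adjusted p = 0.000598). In shoots it was higher in dme-2 by 1.64 ± 0.04 (adjusted p = 3.35e-19).

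JAZ10 (ATLER-5G22900), which makes splice forms that resist hormone-induced degradation, was at 216.92, 151.80 and 124.80 TPM in WT calli and 175.97, 107.95 and 297.34 in dme-2 calli. It was at only 15.85, 11.59 and 11.42 TPM in WT shoots, the lowest of the 10 loci there, and at 47.11, 57.07 and 57.89 in dme-2 shoots. JAZ10 fell by 4.14 ± 0.18 on the log2 scale from WT calli to WT shoots (adjusted p = 6.64e-08). Among the members it showed the largest rise in dme-2 over WT shoots, 2.12 ± 0.10 (adjusted p = 5.78e-15), yet its dme-2 shoot level stayed below that of every callus library. The fall from dme-2 calli to dme-2 shoots was called too (-1.71 ± 0.34, adjusted p = 0.00347).

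MYC2 (ATLER-1G44690), the basic helix-loop-helix factor that JAZ proteins hold in check, was at 54.47, 38.79 and 25.07 TPM in WT calli and 33.09, 27.94 and 44.07 in dme-2 calli. It was at 201.21, 208.66 and 206.29 TPM in WT shoots and 318.65, 306.94 and 340.73 in dme-2 shoots. The genotypes overlapped in calli only. MYC2 was higher in dme-2 shoots by 0.65 ± 0.04 on the log2 scale (adjusted p = 7.17e-12) and rose from WT calli to WT shoots by 1.85 ± 0.20 (adjusted p = 2.51e-05).

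The VSP genes, which encode vegetative storage proteins and are classical readouts of MYC2 activity in leaves, did not follow MYC2 or the JAZ genes in dme-2 shoots. The VSP1/VSP2 locus ATLER-5G35030 was at 246.03, 256.48 and 259.24 TPM in WT shoots and at 115.88, 113.97 and 112.20 in dme-2 shoots. The dme-2 libraries lay below every WT library, and the locus fell by 1.19 ± 0.05 on the log2 scale (adjusted p = 8.09e-16). The VSP1/VSP2 locus ATLER-5G35040 was at 65.40, 57.31 and 57.87 TPM in WT shoots and 37.60, 46.39 and 41.22 in dme-2 shoots, a fall of 0.48 ± 0.07 (adjusted p = 3.65e-06). Mesophyll markers moved in the same direction: 14 of the 17 loci were lower in dme-2 shoots and 0 higher, with a median of -0.25 on the log2 scale. The shares of all loci were 26.1% lower and 26.7% higher. Most of these marker loci list several Col homologs and could share reads, so they are uncertain one by one. The 4 flower markers summed to 29.2 to 31.5 TPM in WT shoots and 70.4 to 76.3 in dme-2 shoots, with 1 of 3 tested loci higher, PI (5.17), and 1 lower, SEP3 (-1.44). Most of the sum was SEP3 in WT shoots (mean 26.57 TPM) and PI in dme-2 shoots (62.49). PI was also expressed in calli, at means of 21.08 TPM in WT and 16.51 in dme-2, against 2.08 in WT shoots. The part of either marker list in the member differences between shoots was not tested.

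In calli the VSP1/VSP2 loci were at the limit of detection. ATLER-5G35030 had 0, 3 and 1 counts in WT calli, and the ratio of WT shoots to WT calli was 2492 (95% exact interval 973 to 9146, from 9536 and 4 counts). ATLER-5G35040 had 1, 1 and 0 counts, with a ratio of 1162 (321 to 9598, from 2223 and 2 counts). Both ratios were scaled by total counts, not by TMM, and the intervals cover counting error only. With TMM, edgeR gave rises of 10.63 for ATLER-5G35030 and 9.43 for ATLER-5G35040 on the log2 scale. In dme-2 calli both loci were listed at 0 TPM in every library but one (0.10 TPM for ATLER-5G35040), so no fold is given for that genotype.

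By stage, 7 of the 10 loci were higher and 2 lower in WT shoots than in WT calli, where 43.4% of 19616 tested loci were higher and 38.4% lower. In dme-2, limma on log2(TPM + 1) called 8 higher and 2 lower, against 49.0% and 23.8% of 18729 loci. On that same scale WT shoots had 8 members higher and 2 lower, OPR3 being called as well. The members' median there was 3.49 in WT and 3.78 in dme-2, beside 0.58 and 0.48 for all loci, while edgeR gave 2.80 in WT beside 0.14. In both genotypes the 2 lower loci were JAZ1 and JAZ10. In dme-2 the rises were 5.89 ± 0.09 for LOX2, 2.099 ± 0.23 for AOS, 4.37 ± 0.55 and 5.74 ± 0.41 for the AOC1/AOC2 loci ATLER-3G38510 and ATLER-3G38520, 1.87 ± 0.40 for OPR3 and 3.19 ± 0.17 for MYC2, with adjusted p between 5.85e-08 and 0.00458.

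**Figure D2:**
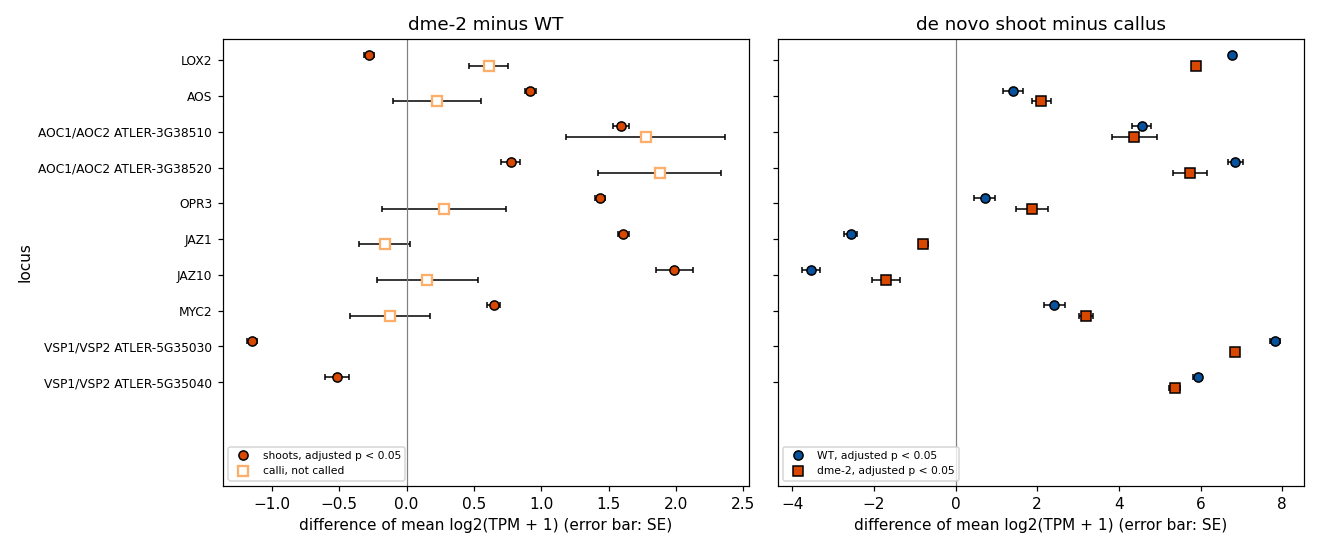
Differences of mean log2(TPM + 1) for the 10 loci, from limma in every comparison so that both genotypes and both stages share 1 scale, with SE as error bars. Left, dme-2 minus WT in shoots and calli, and right, de novo shoot minus callus in WT and dme-2. Filled symbols passed an adjusted p of 0.05, open symbols did not, and the VSP1/VSP2 loci were under the minimum level for the callus test. The shoot differences have short error bars and lie on both sides of 0, while no callus difference passed, and JAZ1 and JAZ10 are the 2 loci left of 0 in the right panel.

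The order of levels within a group changed accordingly. In WT calli JAZ1 stood alone at the top (882 ± 219 TPM, SD, n = 3), followed by JAZ10, OPR3, AOS and MYC2, whose neighbours in this order overlapped, and then by LOX2, the AOC1/AOC2 loci and the VSP1/VSP2 loci. In WT shoots LOX2 led (890 ± 15 TPM), and no neighbours overlapped down to JAZ10 in the last place (12.95 ± 2.51 TPM). In dme-2 shoots LOX2 (733 ± 20 TPM) were followed by OPR3 (530 ± 17 TPM), which had been the fifth in WT. There, ATLER-3G38520 overlapped with JAZ1, ATLER-3G38510 with AOS, and AOS with MYC2.

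Spread between replicates differed by stage. Leaving aside the VSP1/VSP2 loci, the coefficient of variation of a member within a group ran from 6.58% to 89.7% in calli (median 37.4%) and from 1.37% to 19.4% in shoots (median 3.69%). The same libraries stood high for most members: WT callus replicate 1 was the highest of its group for 7 of 8 members, and dme-2 callus replicate 3 for 7 of 8. LOX2 was the exception in both genotypes.

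This spread bears on the callus comparison. LOX2 (0.61 ± 0.15 on the log2 scale, adjusted p = 0.271) and the AOC1/AOC2 loci ATLER-3G38510 (1.78 ± 0.59, adjusted p = 0.485) and ATLER-3G38520 (1.88 ± 0.46, adjusted p = 0.272) had every dme-2 callus library above every WT callus library, but none passed the threshold with the 6 callus libraries alone. How many of all loci separate in this way was not counted, so the separation alone shows no callus difference. With all 12 libraries in one fit, which lends calli the smaller spread of shoots, LOX2 (adjusted p = 0.00370) and ATLER-3G38520 (adjusted p = 0.0213) passed. The differences of OPR3 (0.28 ± 0.46), AOS (0.23 ± 0.33), JAZ1 (-0.16 ± 0.19), JAZ10 (0.15 ± 0.38) and MYC2 (-0.12 ± 0.30) were smaller than their own errors. Without dme-2 callus replicate 3 those of OPR3, JAZ10 and AOS were -0.18, -0.22 and -0.040.

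Whether the genotype difference itself depended on stage was tested with an interaction term over all 12 libraries (limma on log2(TPM + 1), 18813 loci). It was called for 5 of the 10 members, 2 higher and 3 lower, where 6.75% of all loci were higher and 4.20% lower. The dme-2 minus WT difference was larger in shoots than in calli for JAZ1, by 1.77 ± 0.20 on the log2 scale (adjusted p = 4.04e-04), and for JAZ10, by 1.84 ± 0.45 (adjusted p = 0.0242). It was smaller in shoots for LOX2, by -0.89 ± 0.12 (adjusted p = 8.16e-04). The LOX2 estimates had opposite signs at the 2 stages, but the one in calli was not called with the callus libraries alone. For the VSP1/VSP2 loci ATLER-5G35030 (-0.97 ± 0.15, adjusted p = 0.00199) and ATLER-5G35040 (-0.57 ± 0.16, adjusted p = 0.0454) the term repeats the shoot difference, since calli were at or near 0, and with a pseudocount of 0.1 neither passed (adjusted p = 0.924 and 0.200).

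The terms of OPR3 (1.16 ± 0.52, adjusted p = 0.192), MYC2 (0.77 ± 0.33, adjusted p = 0.170), AOS (0.69 ± 0.37, adjusted p = 0.273) and the AOC1/AOC2 loci (-0.19 ± 0.66 and -1.11 ± 0.50, adjusted p = 0.886 and 0.191) were not called. Single libraries moved some of these calls. OPR3 passed without dme-2 callus replicate 3 (1.62, adjusted p = 0.0201) and MYC2 without WT callus replicate 3 (1.05, adjusted p = 0.0246). JAZ10 no longer passed without WT callus replicate 1 (1.62, adjusted p = 0.0511), dme-2 callus replicate 1 (1.83, adjusted p = 0.0530), WT shoot replicate 2 (1.77, adjusted p = 0.0650) or 3 (1.76, adjusted p = 0.0647), or dme-2 shoot replicate 2 (1.79, adjusted p = 0.0609) or 3 (1.78, adjusted p = 0.0620). ATLER-5G35040 passed in 3 of the 12 fits that each left out 1 library and under none of the 5 other alternatives, with adjusted p of 0.0574 without a TPM filter, 0.0521 after TMM rescaling, 0.115 with array weights and 0.0957 with a replicate block, besides the pseudocount above.

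The members were then set among 74 further loci, homologs of 69 other genes of jasmonate synthesis, turnover, perception and response. In dme-2 against WT shoots, 66 of these could be tested. Of them, 38 were higher and 12 lower, beside 26.7% and 26.1% of all loci. By more than 1 on the log2 scale, 21 of the 66 rose, against the 4.63% of all loci given above. Their median was 0.27. In WT shoots against WT calli 20 were higher and 38 lower of 66 by edgeR, beside 43.4% and 38.4% of all loci, with a median of -0.85. By limma on log2(TPM + 1) 27 were higher and 33 lower of 67, with a median of -0.31. In dme-2 shoots against dme-2 calli limma called 32 higher and 24 lower of 64, where 49.0% and 23.8% of all loci were called, and 26 higher and 27 lower once TPM was rescaled by TMM factors. Between calli of the 2 genotypes limma called 0 of 60, beside 0.141% of all loci, with 12 at an unadjusted p under 0.05. The same shares of all loci stand behind the counts by role below.

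By role, the JAZ family moved most evenly. Of its 11 loci besides JAZ1 and JAZ10, 9 were higher in dme-2 than in WT shoots, 7 of them by more than 1 on the log2 scale, and 0 lower. The 3 largest rises of the whole list were here, in JAZ13, JAZ8 and JAZ7, which encode divergent repressors. JAZ8 was at 9.96, 4.83 and 5.60 TPM in WT shoots and 68.50, 102.78 and 112.08 in dme-2 shoots (3.71 ± 0.21, adjusted p = 3.69e-13). JAZ7 was at 8.90, 12.25 and 8.39 TPM in WT shoots and 109.24, 102.78 and 122.62 in dme-2 shoots (3.47 ± 0.11, adjusted p = 8.49e-18). JAZ13 was near the floor in WT shoots, with 2 counts in each library. Scaled by total counts, the ratio of dme-2 to WT shoots was 17.6 (95% exact interval 7.84 to 49.0, from 115 and 6 counts).

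The rest of the family showed smaller steps. JAZ5 (2.17), JAZ2 (1.25), JAZ9 (1.11), JAZ6 (1.06), JAZ3 (0.69) and JAZ12 (0.28) also rose in dme-2 shoots, while JAZ11 (-0.033, adjusted p = 0.830) and JAZ4 (0.13, adjusted p = 0.813) were not called. Summed over the 13 JAZ loci, WT shoots held 543 to 590 TPM and dme-2 shoots 1400 to 1477, beside 1568 to 2230 in WT calli and 1537 to 1938 in dme-2 calli. The dme-2 shoots thus lay above WT shoots and just below the calli in summed JAZ transcripts. Between WT calli and WT shoots 9 of the 10 other JAZ loci tested fell, by edgeR and by limma on log2(TPM + 1), and JAZ9 rose (1.33 ± 0.12, adjusted p = 8.91e-06). In dme-2, by limma on log2(TPM + 1), 6 of 10 were higher in shoots than in calli and 2 were lower, JAZ3 and JAZ11. The interaction was called for 6 of 10, 5 higher and 1 lower, beside 6.75% and 4.20% of all loci.

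**Figure D3:**
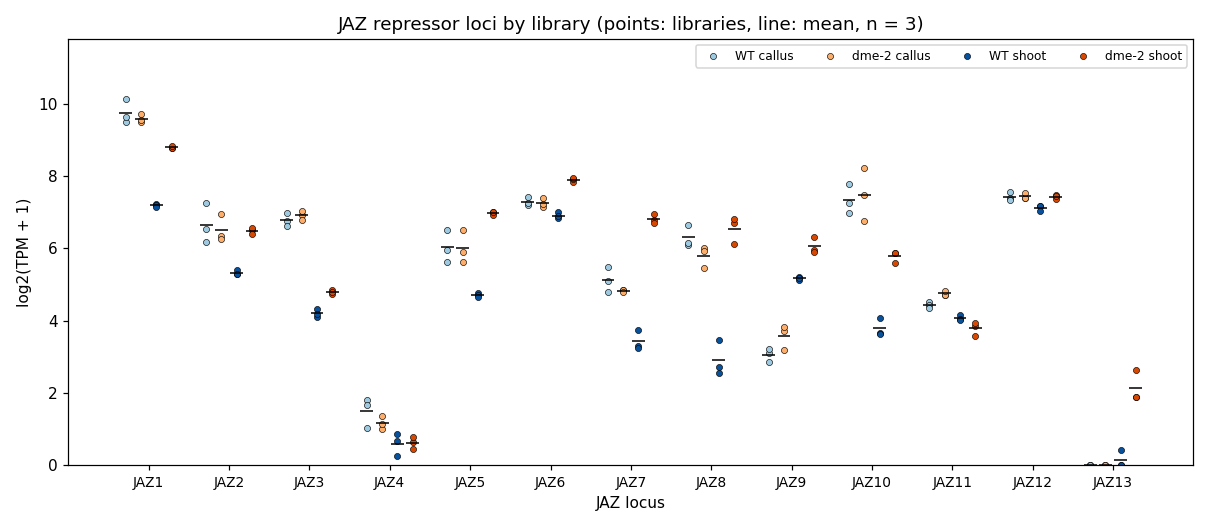
The 13 JAZ loci in each library as log2(TPM + 1), by genotype and stage, with lines at group means of 3 libraries. In most loci the WT shoot points lie lowest and the dme-2 shoot points above them. JAZ4 and JAZ11 do not show this, JAZ9 is lowest in calli, and JAZ13 was listed at 0 TPM in all 6 callus libraries.

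Among the other synthesis loci 9 of 17 were higher and 2 lower in dme-2 shoots. LOX3, another 13-lipoxygenase, was at 19.36, 15.72 and 16.59 TPM in WT shoots and 129.27, 132.27 and 131.18 in dme-2 shoots, and so moved opposite to LOX2 (2.90 ± 0.05, adjusted p = 2.92e-22). Of its relatives, chosen after their values were seen, LOX4 (2.38 ± 0.05, adjusted p = 9.70e-22), LOX6 (0.76 ± 0.05, adjusted p = 1.45e-11) and AOC3 (1.88 ± 0.06, adjusted p = 1.01e-17) rose too, and AOC4 was not called (-0.10 ± 0.05, adjusted p = 0.127). The loci of peroxisomal beta-oxidation enzymes were mostly flat, as 3 of the 4 ACX1/ACX5 and PKT3/PKT4 loci and MFP2 were not called, while 1 PKT3/PKT4 locus fell by 0.28 and AIM1 rose by 0.15.

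Of the conjugation and turnover loci, 10 of 11 tested fell from WT calli to WT shoots by edgeR and 1 rose, beside 38.4% and 43.4% of all loci. The median was -3.66. JAR1 was among the 10, although its TPM overlapped between these groups, at means of 40.37 in WT calli and 39.15 in WT shoots. CYP94B3, which hydroxylates JA-Ile, was at 386.27, 320.68 and 274.36 TPM in WT calli and 4.07, 4.40 and 2.43 in WT shoots (-7.13 ± 0.23, adjusted p = 1.41e-08). Its relative CYP94B1 fell by 6.01 ± 0.45 (adjusted p = 2.23e-06), though from no more than 4.69 TPM. In dme-2 shoots CYP94B3 was at 23.68, 23.39 and 24.54 TPM. Of the conjugation and turnover loci, 7 of 10 were higher than in WT shoots and 1 was lower. JOX4, which hydroxylates jasmonic acid, fell by 4.57 ± 0.39 between dme-2 calli and dme-2 shoots (adjusted p = 4.92e-05). The receptor gene COI1 was not called between shoots (-0.11, adjusted p = 0.236).

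Among response genes of the MYC branch, 2 of 9 loci besides VSP1/VSP2 were higher and 5 lower in dme-2 shoots. Of all loci, 26.7% were higher and 26.1% lower. The median of the 9 loci was -0.14, although 8 of the 9 had risen between WT calli and WT shoots. NATA1, an acetyltransferase gene of wound and jasmonate responses, was at 118.51, 112.69 and 112.59 TPM in WT shoots and 25.25, 24.85 and 23.39 in dme-2 shoots (-2.22 ± 0.07, adjusted p = 7.97e-18). The myrosinase gene TGG2 also fell, from 3.09, 2.42 and 1.49 TPM to 0.53, 0.77 and 0.60 (-1.85 ± 0.24, adjusted p = 6.37e-07). Its neighbour TGG1 did not pass (-0.016 ± 0.04, adjusted p = 0.770) at 670 to 699 TPM in both genotypes. MYC5, a relative of MYC2, was at 2.83, 2.61 and 2.30 TPM in WT shoots and 0.42, 0.21 and 0.87 in dme-2 shoots (-2.36 ± 0.29, adjusted p = 1.97e-07).

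In the ERF branch, which serves defence against pathogens, 5 of 7 loci were higher and 1 lower in dme-2 shoots, with a median of 1.11, and no test compared the branches. Of the 5, 3 are loci with homology to the defensin genes PDF1.2 and its copies, which could share reads and are uncertain one by one. Of all such defensin loci, ATLER-2G44170, which was not called between shoots, and ATLER-2G44180 rose most from WT calli to WT shoots. Both had 0 counts in WT calli. Their ratios were scaled by total counts, not by TMM, with 3 counts over the callus group as the floor. On that scale they were at least 295-fold and 204-fold higher in WT shoots, and TGG2 was at least 80.5-fold higher. The basic chitinase gene CHIB ran the other way, at 653 to 998 TPM in dme-2 calli and 26.9 to 31.2 in dme-2 shoots (-4.83 ± 0.17, adjusted p = 9.03e-07). So did HEL, the most abundant locus of this branch. Its means were 10765 TPM in WT calli and 853 in WT shoots, and 11420 in dme-2 calli and 1956 in dme-2 shoots. From WT calli to WT shoots 4 of the 6 tested ERF loci rose and 2 fell, while the branch sum went from 10901 to 12128 TPM in calli to 1119 to 1165 in shoots. NAC055, a jasmonate-induced factor gene, fell by 6.27 ± 0.14 in WT (adjusted p = 4.00e-09) and by 5.95 ± 0.14 in dme-2 (adjusted p = 1.81e-07), while TGG1 rose by 8.13 ± 0.23 in dme-2 (adjusted p = 3.21e-07). In dme-2 calli ATLER-2G44180 and the defensin locus ATLER-5G62100 were listed at 0 TPM, against 178 to 237 and 164 to 216 in dme-2 shoots.

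**Figure D4:**
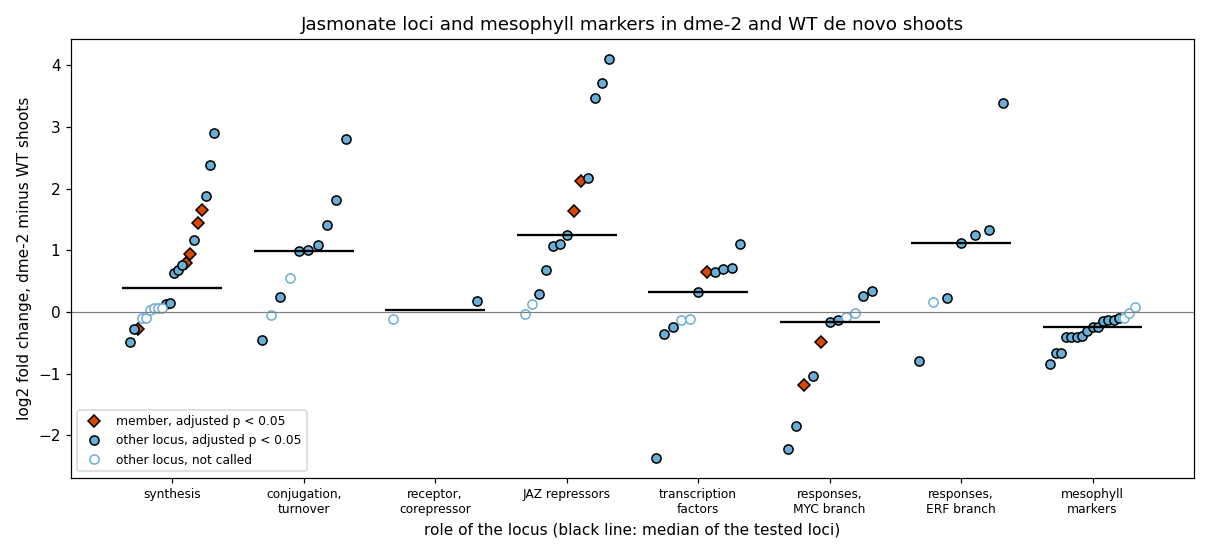
Log2 fold changes of the jasmonate loci between dme-2 and WT de novo shoots (edgeR, counts), by role, with mesophyll markers as a further group and a line at each group's median. Diamonds are the 10 members, and filled symbols passed an adjusted p of 0.05. JAZ repressor loci lie near or above 0, those of the MYC response branch mostly below, and the synthesis loci spread from -0.48 to 2.90.

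For likeness, each member was set against 18803 loci by Pearson correlation of log2(TPM + 1) over the 12 libraries, as a description. These values mostly reflect how a locus differs between calli and shoots, since 4247 loci had a correlation above 0.95 with LOX2 and 4162 and 4334 with the VSP1/VSP2 loci. The closest locus to LOX2 was PnsB3, a subunit of the chloroplast NDH complex (0.999), and those to the VSP1/VSP2 loci were REC3 (0.9998) and SIG4 (0.9995). Of the 7 loci that were higher in dme-2 shoots, MYC2 had 3004 such loci, led by IQM4 (0.996), and the AOC1/AOC2 locus ATLER-3G38520 had 2520, led by AT1G49730 (0.996). The other 5 had fewer. ATLER-3G38510 had 280, led by ATHIR1 (0.994), AOS 242, led by AT4G34480 (0.992), JAZ10 204, led by AT2G22760 (0.996), JAZ1 202, led by NHL13 (0.994), and OPR3 18, led by PTI1-4 (0.989).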

How the data were processed

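Total RNA of 3 WT callus, 3 dme-2 callus, 3 WT shoot and 3 dme-2 shoot samples was sequenced by the authors from stranded mRNA libraries. Per the labels and the paper's methods, reads were mapped to the Ler genome with STAR 2.7.10a and quantified with RSEM 1.3.1, and differential expression was called with DESeq2. The authors deposited whole-number counts per locus, without normalization and with no step named for making them. The deposited TPM values, made by the authors, correct for transcript length and add up to one total in each library, so they keep no depth. All sample columns were matched by name, with 0 left unused.

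Shoots were compared, and WT calli with WT shoots, on counts by edgeR 4.0.16 (TMM, filterByExpr, quasi-likelihood test) in R 4.3.3. Where dme-2 calli entered, as in the interaction test, limma 3.58.1 (eBayes with trend) was run on log2(TPM + 1), keeping loci that averaged 1 TPM or more, since the counts under the dme-2 callus labels disagree with the TPM. Fold changes on that scale understate the change of low loci. Each comparison used its own 6 libraries and the interaction all 12, and p-values were adjusted over all loci tested. The median fold change over all loci was 0.14 with TMM, 0.68 with library size only and 0.58 on TPM between WT calli and WT shoots. The tests were also run on simulated data with known changes. There all groups had the same spread, so that check does not cover the unequal spread of calli and shoots.

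Members and lists were chosen with earlier results of these data known. Named were all member loci, the closest locus to each, and of the other jasmonate loci up to 3 largest rises and 3 largest falls per comparison among those called with groups that do not overlap (called only, for the interaction). Alternatives were other normalizations, filters and pseudocounts, DESeq2 1.42.0, limma on TPM, wider fits, array weights per group, a replicate block and leaving out each library. Symbols of 105 listed genes were found in RefSeq's TAIR10.1 by locus tag. That assembly is not the Ler build of the files, so a planned search of promoters was not run and no sequences are shown.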

Additional observations from a re-analysis of the deposited data

Results flagged for a closer look

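The interaction term passed the threshold for 5 members, as a test of whether the genotype difference differed between calli and shoots (all 12 libraries, limma, dme-2 minus WT in shoots less the same in calli, on the log2 scale). The term was 1.77 for JAZ1, 1.84 for JAZ10, -0.89 for LOX2, -0.97 for the VSP1/VSP2 locus ATLER-5G35030 and -0.57 for the VSP1/VSP2 locus ATLER-5G35040. The VSP1/VSP2 terms repeat the shoot difference, since calli were at or near 0, and neither passed with a pseudocount of 0.1. That of ATLER-5G35040 passed in 3 of 17 alternatives and that of JAZ10 was lost in 6 of the 12 fits without single libraries. Of the other jasmonate loci, the 3 highest called terms were 4.15 for JAZ8, 3.69 for JAZ7 and 3.10 for LOX3, and the 3 lowest were -2.89 for NATA1, -2.27 for the tyrosine aminotransferase gene TAT3 and -1.10 for the ST2A/ST2B locus ATLER-5G16770, whose homologs encode hydroxyjasmonate sulfotransferases and could share reads. TAT3 was at 10.25 to 21.70 TPM in WT calli, 18.30 to 64.90 in dme-2 calli, 26.43 to 30.72 in WT shoots and 12.28 to 13.84 in dme-2 shoots. Its term was no longer called in 8 of the 12 fits that each left out 1 library (adjusted p = 0.0509 to 0.0594). The terms of JAZ1, LOX2, JAZ7, JAZ8, LOX3, NATA1 and ATLER-5G16770 passed under every alternative run.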

How the results depend on the processing

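In shoots, all 10 member differences between dme-2 and WT kept their direction under every alternative, and all but that of LOX2 in the 9-library fit kept the call. That fit, whose spread includes the more variable calli, called 5437 loci in all against 10093. Between calli, 0 members were called except with all 12 libraries in one fit (2 higher). Other jasmonate loci called higher were 1 with TPM rescaled by TMM factors and 3 in the 12-library fit, and all loci called, 24 in the comparison as reported, were 13 without a TPM filter, 417 in the 12-library fit and 1 to 9 without single libraries. For the interaction, members called lower were 1 with a pseudocount of 0.1. Without single libraries, members called higher ranged from 1 to 3, other jasmonate loci called lower from 3 to 7 and all loci called from 1271 to 3469.

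Values changed sign only where no call was made, and only when a callus library was left out. Over the fits without single libraries, OPR3 between WT calli and WT shoots ran from -0.027 to 0.44. Between calli, the range was -0.18 to 0.68 for OPR3, -0.040 to 0.54 for AOS, -0.29 to 0.030 for JAZ1, -0.22 to 0.51 for JAZ10 and -0.41 to 0.14 for MYC2. The interaction of the AOC1/AOC2 locus ATLER-3G38510 ran from -0.72 to 0.48. The cause was not tested.

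Replicate numbers did not pair the samples: correlations of same-numbered deviations ran from -0.399 to 0.0275, and in no comparison did every library correlate best with its own number. A replicate block changed the count of all loci called to 1 between calli and to 1450 from 2060 for the interaction, where ATLER-5G35040 was no longer called (adjusted p = 0.0957), and no other member call.

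Scaling moved the balance of calls over all loci between stages. It was 8514 higher and 7541 lower in WT with TMM, 11152 and 5282 with library size only and 10305 and 5049 on TPM. In dme-2 it was 9181 and 4452, and 6842 and 6229 with TPM rescaled by TMM factors. The other jasmonate loci were 27 higher and 33 lower in WT on TPM, and 26 and 27 in dme-2 after rescaling. Called members kept their directions under each of these. Depth limits the VSP1/VSP2 loci in calli, at 4 and 2 counts in all.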
